A study of Mus musculus with 7 samples.

Results

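The cells described here are mammary epithelial cells of mouse tumors that carried transcripts of hormone-sensing luminal genes and no fibrinogen transcript. They were chosen by measured counts of unique molecular identifiers (UMIs, which count captured mRNA molecules). A cell had to show at least 3 UMIs of Epcam, Krt8 and Krt18 together, 0 UMIs of the fibrinogen genes Fga, Fgb and Fgg, and at least 2 UMIs of Ptn, Prlr, Cited1, Esr1, Pgr and Slc12a2 together, with this hormone sum above the UMIs of the PyMT transgene (PYMT). In all, 665 of 15047 cells met the rule, and 6082 cells met its keratin cut. The members are called fibrinogen-negative hormone cells below.

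The 7 tumors came from 7 MMTV-PyMT;HK2f/f mice, 1 Drop-seq library each, which are the control animals of a study of hexokinase 2 (HK2) in breast cancer metastasis. All mice were on a C57BL/6 background, carried the floxed HK2 alleles and formed tumors from a PyMT oncogene under the mouse mammary tumor virus promoter, and their labels give the genotype as wild type and a time 3 months after a palpable tumor. The study gave tamoxifen to experimental and control mice alike once a tumor was palpable, to delete HK2 in the experimental animals. It describes the single-cell tumors of both genotypes as exposed to tamoxifen. The part of tamoxifen in the results below was not tested, as no untreated mice were compared. The sample titles form 2 series, CB (replicates 1, 2, 3 and 4) and WT (replicates 5, 7 and 8), and the labels do not say what sets these series apart. With a single condition, all comparisons were made between cell groups inside the same mice.

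Hormone-sensing luminal cells are the ductal cells of the mammary gland that carry receptors for estrogen, progesterone and prolactin. They are known to relay hormone signals to neighboring cells through secreted factors such as amphiregulin, Wnt4 and RANK ligand. The other luminal branch, the alveolar cells, makes milk proteins, and tumors of MMTV-PyMT mice are known to hold many cells with alveolar genes. Fibrinogen, the precursor of the fibrin clot, is made mainly by hepatocytes.

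Fibrinogen transcripts are what the choice of these cells turned on. Therefore the bases before the RefSeq start of the fibrinogen β and γ chain genes are shown, together with those of Pcp4, one of the genes outside the rule that was highest against PYMT-dominant cells. Each run holds 250 bases, 5′ to 3′ on the gene's strand, in build GRCm38.p6. Capitals mark matches on either strand to TTCNNNGAA, the letters of a STAT site, or to GTTAAT, the core of an arm of the hepatocyte nuclear factor 1 (HNF1) site.
Fgb, minus strand, chr3:83049864-83050113: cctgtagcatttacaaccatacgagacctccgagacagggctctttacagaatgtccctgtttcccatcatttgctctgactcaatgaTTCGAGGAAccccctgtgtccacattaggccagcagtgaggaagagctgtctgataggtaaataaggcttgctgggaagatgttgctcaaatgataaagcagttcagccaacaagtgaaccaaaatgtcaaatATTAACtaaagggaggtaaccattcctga
Fgg, plus strand, chr3:83007474-83007723: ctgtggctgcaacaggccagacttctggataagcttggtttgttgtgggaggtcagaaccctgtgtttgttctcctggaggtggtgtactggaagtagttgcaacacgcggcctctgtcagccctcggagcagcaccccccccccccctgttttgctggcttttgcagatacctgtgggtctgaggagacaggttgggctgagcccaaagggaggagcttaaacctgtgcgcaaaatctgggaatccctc
Pcp4, plus strand, chr16:96467356-96467605: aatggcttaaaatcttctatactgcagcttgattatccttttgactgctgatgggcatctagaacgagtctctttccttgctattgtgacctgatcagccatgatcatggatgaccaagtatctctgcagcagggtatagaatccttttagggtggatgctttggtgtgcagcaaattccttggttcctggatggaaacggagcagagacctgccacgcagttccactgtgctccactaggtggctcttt
The Fgb window held 1 STAT match, 162 to 154 bases before the start, and 1 HNF1 arm, 29 to 24 bases before it. The Fgg and Pcp4 windows held neither set of letters. Among 32851 RefSeq promoter windows of the same length, 7.02% held the STAT letters and 6.43% the HNF1 arm.

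The fibrinogen-negative hormone cells were found in every tumor, from 28 cells in replicate 8 to 294 in replicate 4. They made up 7.37, 20.1, 6.79 and 14.8% of keratin-gated cells in CB replicates 1 to 4 and 7.52, 4.24 and 11.2% in WT replicates 5, 7 and 8, a mean of 10.3% ± 5.52 (SD, n = 7). The share was highest in replicate 2 (95% Clopper-Pearson interval 17.3 to 23.3%) and lowest in replicate 7 (3.01 to 5.80%), and these intervals, which cover counting error only, did not overlap. The CB mice averaged 12.3% and the WT mice 7.66%, with overlapping ranges (6.79 to 20.1% and 4.24 to 11.2%). In a further count, every cell of at least 500 UMIs was thinned to 500 and all marker cuts were applied again. The mean share was then 11.03%, with 3535 cells left in the keratin gate.

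**Figure D1:**
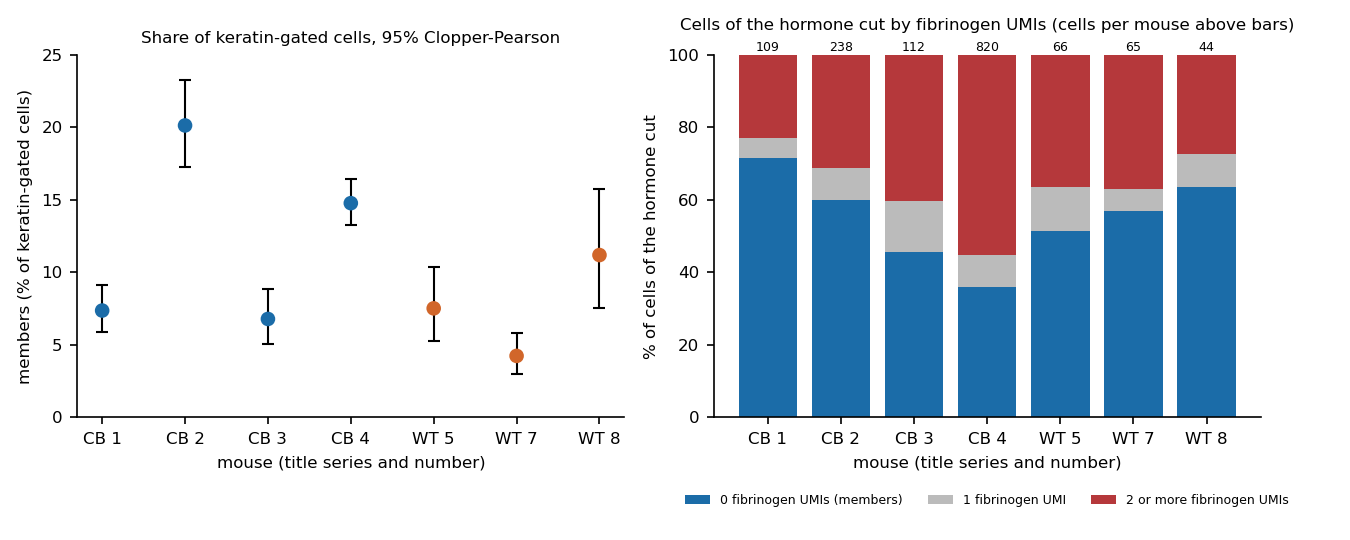
Left, fibrinogen-negative hormone cells as a percent of keratin-gated cells in each mouse, with 95% Clopper-Pearson intervals (blue CB, orange WT). Right, the cells of each mouse that met the keratin and hormone cuts, divided by their fibrinogen UMIs in percent, with the number of cells above each bar. Shares ran from 4.24 to 20.1%, and replicate 4 held most fibrinogen-positive cells.

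Cells of the same keratin and hormone cuts formed a graded series in fibrinogen. There were 665 with 0 fibrinogen UMIs, 132 with 1, 79 with 2, 271 with 3 to 9 and 307 with 10 or more. Depth moved with this split. Cells without a fibrinogen UMI were 58.8% of hormone-cut cells below 500 UMIs, 49.9% from 500 to under 1000, 44.8% from 1000 to under 2000 and 36.4% at 2000 or more. Cells with 5 or more fibrinogen UMIs made up 10.96% of the shallowest class and 44.6% of the deepest. The median of total UMIs per cell was 741 to 1994 across mice for the fibrinogen-negative hormone cells and 1246.5 to 2101.5 for cells of the same hormone cut with at least 2 fibrinogen UMIs, called fibrinogen-positive hormone cells here (657 cells, 453 of them from replicate 4). How many of the 665 cells carried fibrinogen mRNA that was not captured was not tested. Immune cells, gated on at least 3 UMIs of an immune gene list and 0 keratin UMIs, served as the measure of free RNA, with Fgb at 0 to 33.5 and Fgg at 0 to 29.3 CPM. CPM are UMIs per 1000000 UMIs summed over a cell group in a mouse.

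Prlr and Slc12a2 carried most of the choice. Prlr, the prolactin receptor, had a UMI in 79.7% of the 665 cells, and Slc12a2, the Na-K-Cl cotransporter NKCC1, in 75.2%. Cited1, a transcriptional co-regulator of estrogen receptor targets, was seen in 35.0%, and Ptn, the secreted growth factor pleiotrophin, in 24.7%. Pgr, the progesterone receptor, was seen in 11.9% and Esr1, estrogen receptor α, in 8.72%. In immune cells, with a median of 459 to 551 UMIs, the same genes were seen in 0.027 to 1.91% of cells. As these genes chose the cells, their levels are a description and were not tested. The cells with a single hormone gene numbered 130, with Slc12a2 alone in 55 and Prlr alone in 53. In PYMT-dominant cells, which are defined below, Prlr was seen in 18.6% and Slc12a2 in 15.4%.

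The edges of the rule were populated. A hormone sum of exactly 2 was found in 145 members, a sum of 3 in 82 and of 4 or more in 438, and 536 (80.6%) had 0 PYMT UMIs. Just outside lay 293 fibrinogen-negative cells with a hormone sum of 1 and no PYMT UMI, and 20 whose hormone sum of 2 or more equaled their PYMT UMIs. Only 1 member barcode was also a cell in another library, out of 5 cell barcodes that libraries shared.

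Summed over cells, Prlr lay at 1189 CPM in the lowest mouse, 1467 in the median mouse and 2669 in the highest mouse, and Slc12a2 at 901, 1593 and 2232 CPM. Neither gene separated one mouse from the others by much. Cited1 lay at 56.8, 768 and 982 CPM, with replicates 1 (65.4 CPM) and 8 (56.8 CPM) far below the other 5 mice. Ptn ranged from 44.6 CPM in replicate 5 to 1621 CPM in replicate 4, around a median of 565. Pgr lay between 14.9 and 130 CPM, and Esr1 between 0, in replicate 3, and 134 CPM. In fibrinogen-positive hormone cells the medians were 2339 CPM for Prlr, 1716 for Slc12a2, 1065 for Cited1, 1894 for Ptn, 74.0 for Pgr and 35.6 for Esr1. Within mice, the fibrinogen-negative hormone cells had less Prlr and less Ptn than the fibrinogen-positive ones in 7 of 7 mice, less Cited1 in 6 of 7 and less Pgr in 5 of 7. Slc12a2 was higher in the fibrinogen-negative cells in 4 of 7 mice and Esr1 in 5 of 7. The ranges over mice overlapped for all 6 genes. PYMT was at 96.2 to 387 CPM in fibrinogen-negative and 107 to 844 CPM in fibrinogen-positive hormone cells, against 7.07 to 106 CPM in immune cells.

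**Figure D2:**
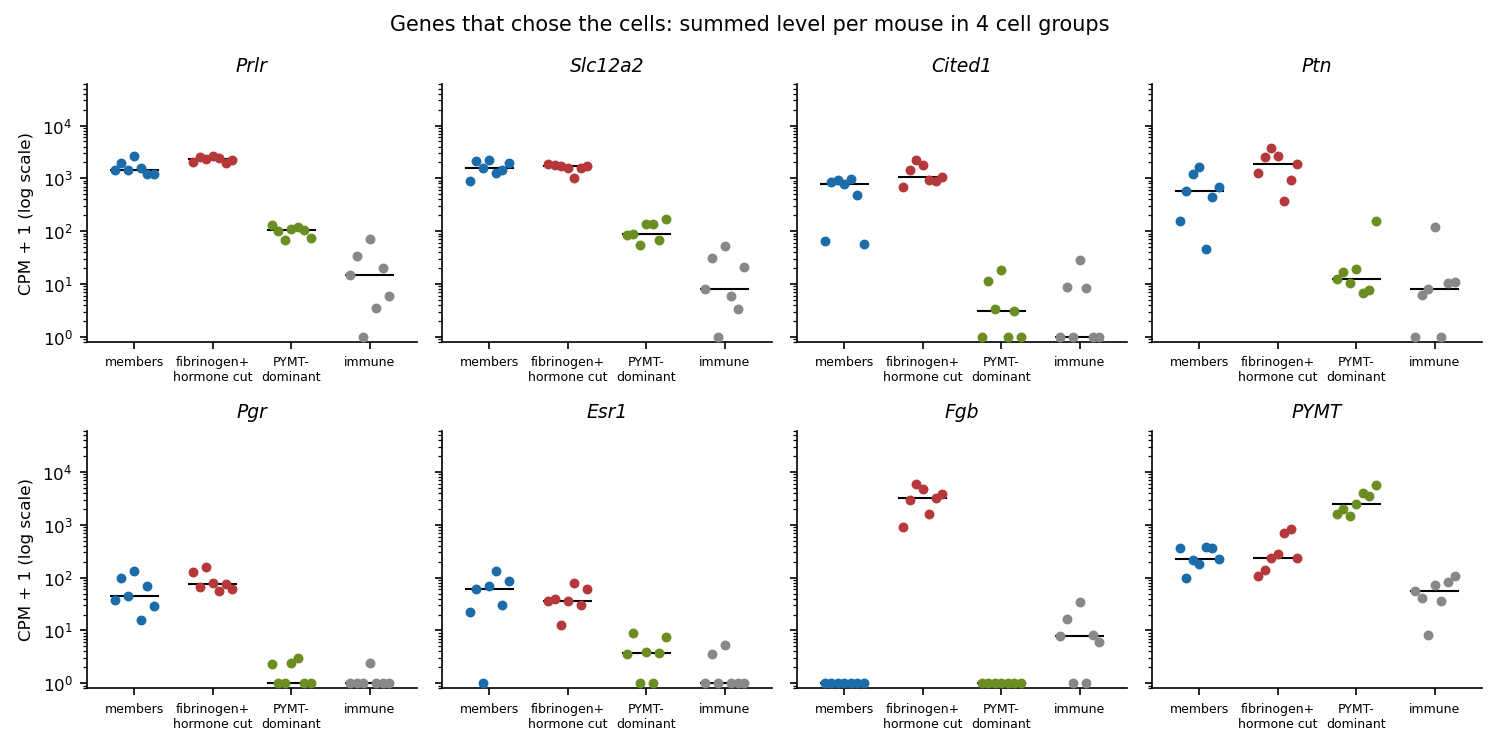
Level of 8 genes that chose the cells (CPM + 1, log scale), 1 point per mouse and a line at the median, in fibrinogen-negative hormone cells (members), fibrinogen-positive hormone cells, PYMT-dominant cells and immune cells. Prlr and Slc12a2 were even across the 7 mice, at 1189 to 2669 and 901 to 2232 CPM in members, while Cited1 and Ptn spread widely.

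The label was checked against genes outside the rule. The hormone-sensing list holds 20 genes that the rule did not use, all were detected in the fibrinogen-negative hormone cells, and their summed level was 4678, 9453 and 16247 CPM in the lowest, median and highest mouse. PYMT-dominant cells had 682 to 1359 CPM and immune cells 283 to 764 CPM, so these ranges did not overlap that of the members. Fibrinogen-positive hormone cells had 8759 to 14661 CPM and fibrinogen-positive epithelial cells 6075 to 14164 CPM, which overlap it. Krt19, a keratin of ductal cells, and Ly6a, the surface protein Sca-1, made up most of the sum. Foxa1, the pioneer factor that opens estrogen receptor sites, gave 76 UMIs and Tnfsf11, the RANK ligand, 5, too few for a test. The list of the other luminal branch, the alveolar and milk genes, summed to 5728, 13538 and 35291 CPM in the lowest, median and highest mouse of the members, and its sum was above that of the hormone-sensing list in replicates 1, 3, 7 and 8. PYMT-dominant cells had 36259 to 69768 CPM of it and immune cells 2254 to 5209 CPM, so the members lay between these groups in every mouse, and the part of alveolar RNA or cells in the results was not tested. Of the markers of other cells, immune genes summed to 67.3 to 442 CPM in the members against 22966 to 39618 CPM in immune cells, with the T-cell gene Cd3e at 1 UMI and the B-cell gene Cd79a at 2. Basal and myoepithelial markers summed to 78.2, 196 and 546 CPM in the lowest, median and highest mouse, with Oxtr, 1 of the 12 genes, at 0 UMIs. They summed to 34.3 to 132 CPM in fibrinogen-positive epithelial cells, 0 to 212 CPM in fibrinogen-positive hormone cells, 97.2 to 379 CPM in PYMT-dominant cells and 10.2 to 151 CPM in immune cells. The members had more of them than fibrinogen-positive epithelial cells in 7 of 7 mice and than fibrinogen-positive hormone cells in 6 of 7. Of 6 measured hepatocyte markers, Apoa1 was at 0 and the others gave 1 or 2 UMIs each. Stromal and endothelial markers summed to 238, 1086 and 8230 CPM in the lowest, median and highest mouse. They summed to 54.9 to 925 CPM in PYMT-dominant cells, 70.7 to 4007 CPM in immune cells and 760 to 2413 CPM in fibrinogen-positive hormone cells. Dcn gave most of that sum in most mice and is described below. Of this list Pecam1 and Cdh5, markers of endothelium, were at 0 of 1176290 UMIs, which allows up to 2.55 CPM. The part of stromal RNA or cells in the results was not tested.

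The main contrast compared the fibrinogen-negative hormone cells with the epithelial cells of the same keratin cut that carried at least 2 fibrinogen UMIs, whatever their hormone or PYMT counts (736 cells). Over 2199 genes, with the genes of the rule left out of the test, 2 were called higher and 0 lower by edgeR's quasi-likelihood test with mouse as a block (Benjamini-Hochberg adjusted p under 0.05), 0.091% of the genes tested. DESeq2 also called 2. At an unadjusted p under 0.05 there were 92 higher and 68 lower. With no difference between groups, a share of about 0.05 of the genes tested would pass this threshold. The median difference over all genes was 0.00 (log2), the median SE was 0.19, and 96.5% of genes differed by less than 0.5. These cells are 657 fibrinogen-positive hormone cells and 79 others, so this contrast and the next share most of their cells.

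Plb1, which encodes a phospholipase B, was at 108, 170 and 359 CPM in the lowest, median and highest mouse of the fibrinogen-negative hormone cells and at 0, 43.1 and 145 CPM in fibrinogen-positive epithelial cells. It was higher in 7 of 7 mice, by 1.59 ± 0.28 (log2, SE, adjusted p = 0.034 by edgeR). Cald1, the actin-binding protein caldesmon, was at 69.2, 322 and 681 CPM against 22.5, 154 and 316 CPM, higher in 7 of 7 mice by 0.999 ± 0.18 (adjusted p = 0.034). The ranges of the mice overlapped for both genes, and the order held inside each mouse. With a hormone sum of at least 3, the Cald1 difference was 0.44 (adjusted p = 0.65). The summed basal and myoepithelial markers, at a mean of 223 against 61.5 CPM, were also higher in 7 of 7 mice, and their part in the Cald1 difference was not tested. Cald1 was itself high in PYMT-dominant cells (308 to 778 CPM), whereas Plb1 was at 43.6 to 160 CPM there. The next gene, Fxyd2, a regulatory subunit of the sodium pump, was at 758 ± 366 CPM against 376 ± 233 CPM (SD, n = 7) and did not pass (1.09 ± 0.23, adjusted p = 0.073). The count was 4 without replicate 1, 1 without replicate 3, 6 without replicate 5 and 0 without replicate 2, 4 or 7. For the latter, 114 of 1982, 131 of 1973 and 131 of 2179 genes tested had an unadjusted p under 0.05. The count was also 0 without the mouse block (54 of 2199) and with the fibrinogen minimum raised to 3 UMIs (145 of 1896).

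Against fibrinogen-positive hormone cells, which met the same hormone cut, 1555 genes were tested and 2 were called higher and 2 lower, 0.257% of genes. The groups shared the cut but not the hormone level. The median hormone sum per cell was 3 to 9 UMIs across mice in the fibrinogen-negative and 6.5 to 15 in the fibrinogen-positive cells. It was lower in the fibrinogen-negative cells of each mouse, and its part in the differences was not tested. At an unadjusted p under 0.05 there were 78 higher and 57 lower, and DESeq2 called 2. The median SE was 0.17, and 95.8% of genes differed by less than 0.5 (log2). The hormone-sensing genes outside the rule, 6 of 20 of which were tested, gave 0 calls in either direction. Their median difference was -0.12 beside 0.00 over all genes. None of the other lists held a called gene in either fibrinogen contrast, where no basal, immune or hepatocyte marker was frequent enough to be tested.

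Phlda1, an early response gene that encodes a pleckstrin-homology protein, was at 337, 785 and 1467 CPM in the lowest, median and highest mouse of the fibrinogen-negative hormone cells. In the fibrinogen-positive hormone cells it was at 288 to 321 CPM, and the 2 ranges did not overlap. It was higher by 1.10 ± 0.21 (log2, SE, adjusted p = 0.029 by edgeR) and in 7 of 7 mice. Cald1 was at 0 to 178 CPM in the fibrinogen-positive hormone cells and was higher in the fibrinogen-negative ones by 1.52 ± 0.29 in 7 of 7 mice (adjusted p = 0.029). In PYMT-dominant cells Phlda1 reached 1536 to 2856 CPM. Between 500 and 2000 UMIs per cell the Phlda1 difference was 0.54 (adjusted p = 0.43 by edgeR), and with a hormone sum of at least 3 it was 0.92 (adjusted p = 0.18).

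Upk3a, uroplakin 3A, a membrane protein of the urothelium, was the gene called lower outside blood genes. It lay at 0, 298, 434, 214, 624.9, 157 and 28.4 CPM in replicates 1, 2, 3, 4, 5, 7 and 8 of the fibrinogen-negative hormone cells, and at 160, 1255, 1751, 1291, 345, 474 and 2012 CPM in the fibrinogen-positive ones. It was lower in 6 of 7 mice, by -1.94 ± 0.37 (adjusted p = 0.029), and higher only in replicate 5. With cells of 2 or more immune, or stromal and endothelial, UMIs left out, it differed by -1.33 (adjusted p = 0.26 by edgeR). It differed by -2.33 in the CB mice alone (adjusted p = 7.53e-05) and by -1.21 in the WT mice alone (adjusted p = 0.58). In PYMT-dominant cells it was at 0 to 8.57 CPM and in immune cells at 0 to 15.3 CPM. Hbb-bs, a β-globin gene of red cells that shares near-identical sequence with Hbb-bt, was lower by -1.74 ± 0.27 (adjusted p = 0.021) in 4 of the 5 mice in which it differed. It was at 1902 CPM in the fibrinogen-negative and 11955 CPM in the fibrinogen-positive hormone cells of replicate 8, where immune cells held 8276 CPM, and at 0 CPM in both groups in replicates 3 and 5. The part of free RNA in this gene's difference was not tested.

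Signals and receptors downstream of hormones stayed under the threshold in this contrast. Areg, which encodes the epidermal growth factor receptor ligand amphiregulin, was at 58.1, 312 and 789 CPM in the lowest, median and highest mouse against 74.0, 852 and 1267 CPM, lower in 6 of 7 mice (-0.89 ± 0.21, adjusted p = 0.099 by edgeR). Stc2, the secreted glycoprotein stanniocalcin 2, was at 334 ± 174 against 546 ± 230 CPM (SD, n = 7; -0.65 ± 0.19, adjusted p = 0.17). Wnt4 differed by 0.19 ± 0.23, Ly6a by 0.02 ± 0.17, Krt19 by -0.26 ± 0.17 and Gata3, a luminal transcription factor, by 0.07 ± 0.18.

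Milk and alveolar genes had no call. The list had 7 of 20 genes tested, all with positive differences and a median of 0.87 (log2). Against all fibrinogen-positive epithelial cells the median was 0.09, with 5 positive and 2 negative differences. Csn3, κ-casein, was at 2270, 4163 and 16708 CPM against 178, 2760 and 7254 CPM (1.13 ± 0.27, adjusted p = 0.099, higher in 5 of 7 mice). Lalba, α-lactalbumin, was at 0 to 1279 CPM against 0 to 178 CPM (2.16 ± 0.50, adjusted p = 0.099). Wfdc18 was higher in 7 of 7 mice (1.60 ± 0.41, adjusted p = 0.14). Summed over the list, alveolar and milk genes reached 533 to 18896 CPM in the fibrinogen-positive hormone cells, against the 5728 to 35291 CPM of the fibrinogen-negative ones. The part of free or mixed milk RNA in these differences was not tested.

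The 4 calls depended on single mice. Without replicate 7 or 8 there were 0 calls (104 of 1564 and 156 of 1927 genes tested at an unadjusted p under 0.05). Requiring at least 20 cells left out replicate 8 alone and so repeated that fit. Without replicates 1, 3, 4 and 5 there were 2, 2, 13 and 10. There were 0 without the mouse block (63 of 1555), and of the 4 calls DESeq2 made 1, with the same sign.

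**Figure D3:**
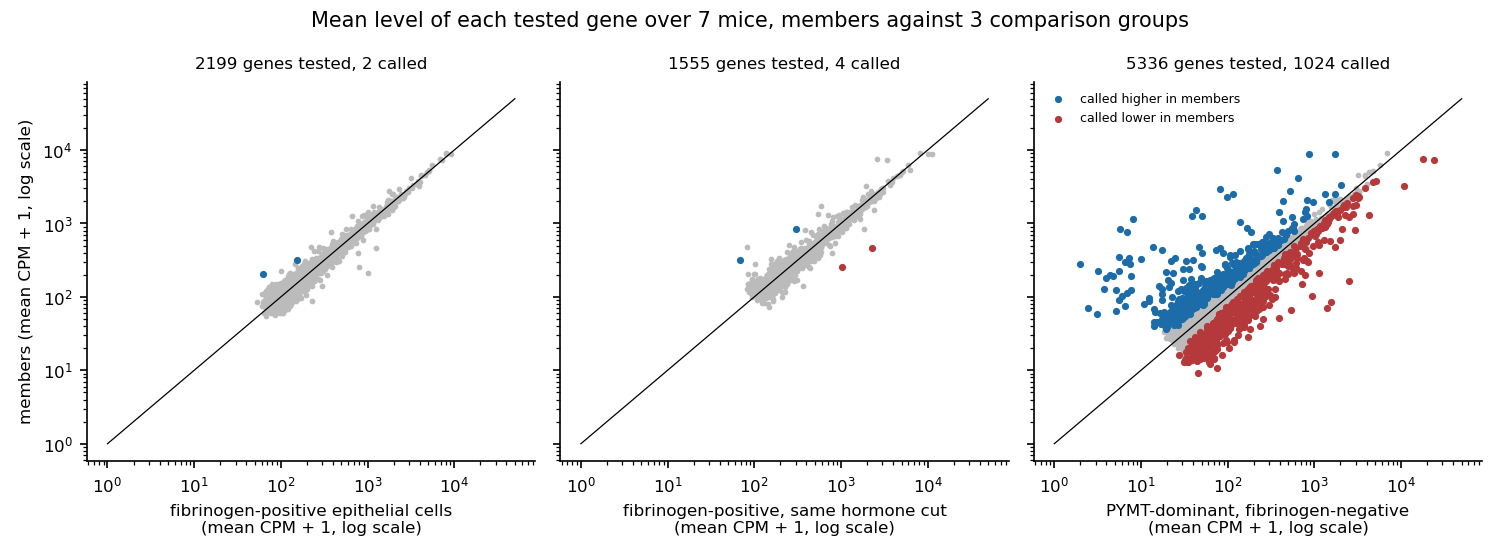
Mean level over 7 mice (CPM + 1, log scales) of each tested gene in fibrinogen-negative hormone cells (vertical) against fibrinogen-positive epithelial cells, fibrinogen-positive hormone cells and PYMT-dominant cells (horizontal). Blue and red points were called higher and lower by edgeR at adjusted p under 0.05, 2 and 0, 2 and 2, and 463 and 561 in the 3 panels, and the line marks equal levels.

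The third contrast asked how the fibrinogen-negative hormone cells differed from fibrinogen-negative epithelial cells in which PYMT prevailed. PYMT-dominant cells met the same keratin cut with 0 fibrinogen UMIs, had at least 2 PYMT UMIs, and had a hormone sum no higher than PYMT (1804 cells). Keratin-gated cells with fewer than 2 fibrinogen UMIs that met neither this rule nor that of the members were in no contrast. Over 5336 genes, 463 (8.68%) were called higher in the fibrinogen-negative hormone cells and 561 (10.5%) lower, together 19.2%. The groups were chosen on other genes of the same cells, so genes that go with the hormone genes or with PYMT were bound to differ, and the counts describe the size of this difference. Median UMIs per cell were 741 to 1994 and 926.5 to 1986 across mice. Between 500 and 2000 UMIs per cell, 312 of 1081 genes were called. The median difference of all genes was -0.03 (log2), the median SE 0.25, and 70.0% of genes differed by less than 0.5.

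Genes with very little signal in PYMT-dominant cells led the higher side. Pcp4, Fxyd2 and Ido1 gave 16, 31 and 4 UMIs there, so they entered the test through the hormone cells alone. Their differences and p-values are therefore a description. Pcp4, a regulator of calmodulin, was at 1126, 1332, 1202, 778, 119, 845 and 397 CPM in replicates 1, 2, 3, 4, 5, 7 and 8 and at 1.43 to 10.5 CPM in PYMT-dominant cells. All mice lay far above the PYMT-dominant range, and the difference was 7.64 ± 0.26 (log2, SE, adjusted p = 5.95e-14 by edgeR). An exon of Pcp4 (chr16:96467606-96525793, GRCm38, plus strand) overlaps an exon of Igsf5 on the same strand, so the counting of reads between them is uncertain. Fxyd2 lay at 255, 699 and 1444 CPM in the lowest, median and highest mouse against 0 to 12.9 CPM (6.84 ± 0.20, adjusted p = 1.23e-14). Ido1, the first enzyme of tryptophan breakdown to kynurenine, lay at 85.1, 189 and 808 CPM, highest in replicate 4, against 0 to 4.29 CPM (7.78 ± 0.33, adjusted p = 2.50e-12).

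Fam25c was higher by 7.31 ± 0.31, R3hdml by 6.41 ± 0.36 and Krt6a by 6.25 ± 0.44, the last being a keratin with a close copy in Krt6b. Ffar4, a receptor for long-chain fatty acids, was higher by 6.02 ± 0.31, Plac8 by 5.88 ± 0.34 and Gipc2 by 5.83 ± 0.27. These 9 genes and Wnt4 were the 10 largest differences with at least 100 UMIs and the same direction in 7 of 7 mice. They gave 4 (Ido1) to 31 (Fxyd2) UMIs in PYMT-dominant cells, so the same limit holds for all of them. In fibrinogen-positive hormone cells, which took no part in this contrast, the medians were 1152 CPM for Pcp4, 365 for Fxyd2, 266 for Ido1 and 1999 for Fam25c.

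Of the hormone-sensing list, 9 of 20 genes had enough UMIs to be tested. Beside the 8.68% higher and 10.5% lower of all genes, 6 were called higher and 0 lower. Genes such as Wnt4 and Stc2, with 8 and 28 UMIs in PYMT-dominant cells, entered the test through the hormone cells alone, so the count does not describe the whole list. Wnt4, a progesterone target and secreted ligand, was at 72.4, 117 and 199 CPM against 0 to 6.53 CPM (5.80 ± 0.41). Stc2 was at 193, 225 and 578 CPM against 0 to 9.79 CPM (5.54 ± 0.31), and Ly6a at 1446, 3200 and 4632 CPM against 16.7 to 222 CPM (5.33 ± 0.32). Krt19 was higher by 3.78 ± 0.19, Areg by 3.13 ± 0.33 and Prom1, which encodes the membrane protein CD133, by 1.63 ± 0.32, each in 7 of 7 mice. Gata3 was at 28.4 to 364 CPM against 105 to 270 CPM and did not pass (0.23 ± 0.21, adjusted p = 0.52). Cish (0.52 ± 0.26) and Socs2 (-0.81 ± 0.28, adjusted p = 0.051), which are feedback inhibitors of STAT5 signaling, did not pass either.

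Junction and keratin genes had 5 of 13 tested members higher and 1 lower (median 0.31, beside -0.03 over all genes, of which 8.68% were higher and 10.5% lower). Krt7 rose by 2.92 ± 0.17 and Cldn4, a claudin of tight junctions, by 0.93 ± 0.16, whereas Cldn1 fell by 1.60 ± 0.30 on the log2 scale. Among ductal and paracrine signals, 4 of 10 tested genes were higher (Areg, Wnt4, Sdc1 and Sdc4) and 4 lower (Wnt5b, Igfbp5, Tgfb2 and Tgfb3). Areg and Wnt4 here, and Krt19 among the junction and keratin genes, were already counted in the hormone-sensing list, so these counts are not separate. Wnt4 entered the test through the hormone cells alone. Igfbp5, which binds insulin-like growth factors, was at 611, 1045 and 2586 CPM against 3167 to 5529 CPM, with no overlap (-1.90 ± 0.22). Sdc1, the heparan sulfate proteoglycan syndecan 1, was at 145 to 346 CPM against 33.4 to 71.8 CPM (2.38 ± 0.19). Of the transport genes, 1 of 11 was higher, near the 8.68% of all genes, the sodium pump subunit gene Atp1b1 (1.35 ± 0.22), and 4 were lower, namely the channel genes Kcne3, Clic6 and Aqp5 and the nucleoside transporter gene Slc28a3.

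Of the alveolar and milk list, 15 of 20 genes were tested. Beside the 10.5% lower and 8.68% higher of all genes, 14 were called lower and 0 higher. Genes of this list with few UMIs in the hormone cells entered the test through the PYMT-dominant cells, so this count does not describe the whole list either. Csn3 was at 14518, 22174 and 38065 CPM in the lowest, median and highest mouse of PYMT-dominant cells, above the 2270 to 16708 CPM of the fibrinogen-negative hormone cells except for replicate 1 of the latter (-2.09 ± 0.26). Elf5, the transcription factor of the alveolar lineage, was lower in 7 of 7 mice (-1.85 ± 0.23), as was Wap, whey acidic protein (-2.49 ± 0.39). With cells of 2 or more immune, or stromal and endothelial, UMIs left out, Wap differed by -1.17 (adjusted p = 0.21 by edgeR). Aldh1a3 was the gene that did not pass (-0.43 ± 0.36).

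Of 22 acute-phase and defense genes, 14 were tested, with the same limit. Beside the 10.5% lower and 8.68% higher of all genes, 11 were lower and 2 higher, the latter not far from that share. Saa2, a serum amyloid gene with a close copy in Saa1, was at 14.9, 29.0 and 187 CPM against 124 to 1098 CPM (-3.21 ± 0.32, adjusted p = 4.80e-07), and Saa1 fell by 2.63 ± 0.32 on the log2 scale. Lcn2, the iron-carrier-binding lipocalin 2, was at 893 to 6349 CPM against 7528 to 16394 CPM, with no overlap (-2.01 ± 0.23). Chil1 (-2.45 ± 0.34) and Lbp, which binds lipopolysaccharide (-2.53 ± 0.45), were lower as well. Hp, haptoglobin, and Socs3, an inhibitor of STAT3 signaling, went the other way (1.44 ± 0.45 and 1.296 ± 0.26). Other genes that fell most were Scgb2b27, of the large secretoglobin family (-4.19 ± 0.61), Thrsp, a regulator of lipid synthesis (-2.84 ± 0.33), Emid1 (-2.72 ± 0.26), Tmem37 (-2.67 ± 0.30) and Ncald (-2.55 ± 0.33). Scgb2b27 differed by -2.97 in the CB mice and by -6.64 in the WT mice. Thrsp, Emid1, Tmem37 and Ncald gave 39, 46, 23 and 13 UMIs in the fibrinogen-negative hormone cells and 1010, 1023, 508 and 282 in PYMT-dominant cells. They entered the test mainly through the PYMT-dominant cells, so their differences are a description.

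**Figure D4:**
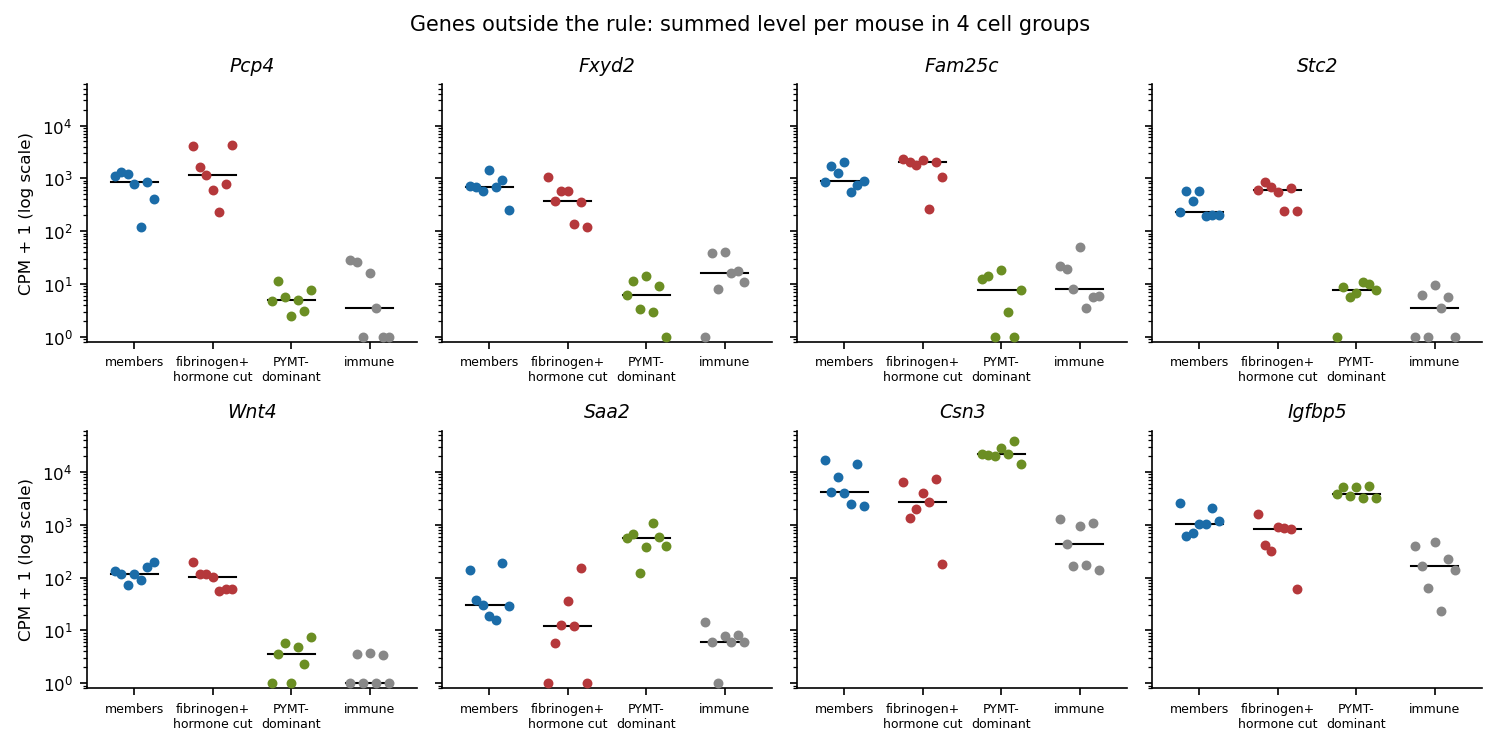
Level of 8 genes outside the rule (CPM + 1, log scale), 1 point per mouse and a line at the median, in the same 4 cell groups. Pcp4, Fxyd2, Fam25c, Stc2 and Wnt4 lay at 55.7 CPM or more in every mouse of both hormone groups and at 0 to 17.2 CPM in PYMT-dominant cells, whereas Saa2, Csn3 and Igfbp5 were highest in PYMT-dominant cells.

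Cycling, stress and metabolism genes were called in both directions or in few members, and their counts are to be read against the 8.68% of all genes called higher and the 10.5% called lower. Cell cycle genes had 3 of 15 higher, Ccnd1, cyclin D1, being at 327 to 860 CPM against 152 to 394 CPM (1.15 ± 0.17), with Ccnb2 (0.97 ± 0.30) and Cenpf (1.46 ± 0.36). Mki67 differed by -0.23 ± 0.30 and Top2a by -0.08 ± 0.32. Immediate early genes, which respond to tissue dissociation, had 1 of 17 higher (Atf3, 0.63 ± 0.15) and 4 lower (Egr1, Ier2, Nr4a1 and Cyr61), and their sum was 20179 to 40356 CPM against 16321 to 52666 CPM. Of the glycolysis genes, 0 of 13 were higher and 2 were lower, a share not far from the 10.5% of all genes, Ldha, lactate dehydrogenase A (-0.99 ± 0.15), and Pfkl, a phosphofructokinase (-1.04 ± 0.24). Hk2, which the study deletes in other animals, gave 39 UMIs and lay at 0, 27.1 and 87.2 CPM against 14.3 to 62.6 CPM (-0.22 ± 0.39, adjusted p = 0.76). Nfe2l2, the antioxidant regulator NRF2, was the 1 of 7 tested study genes that was higher (0.70 ± 0.20). Antigen presentation and interferon genes had the immunoproteasome subunits Psmb8 (0.78 ± 0.16) and Psmb9 (1.09 ± 0.24) higher and Ifit1 and Ifitm3 lower, of 14 tested, 2 in each direction and not far from those shares.

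Dcn, which encodes the matrix proteoglycan decorin and is best known from fibroblasts, was called higher. Its signal in PYMT-dominant cells was low, so it entered the test through the hormone cells and its difference is a description. It lay at 443, 2725, 984, 1886, 149, 254 and 2441 CPM in replicates 1, 2, 3, 4, 5, 7 and 8 of the fibrinogen-negative hormone cells, at 0 to 98.0 CPM in PYMT-dominant cells and at 737 to 1086 CPM in fibrinogen-positive hormone cells (4.76 ± 0.55 against PYMT-dominant cells, 6.65 in the CB and 2.66 in the WT mice). The level was uneven, with replicates 2, 4 and 8 at 1886 CPM or more and replicates 5 and 7 at 254 CPM or less. The fibroblast collagen gene Col1a1 was at 7.27, 3.01, 0, 4.99, 0, 0 and 624 CPM in the same order, so Dcn was highest in replicate 2 with Col1a1 near 0, and in replicate 8 both were high. The summed stromal and endothelial list was 8230 CPM in replicate 8, against 238 to 2761 CPM in the other mice. Of the lists of other cell types, 0 of 2 basal and 0 of 1 immune genes tested were called, and of 3 stromal genes Dcn was higher and Sparcl1 lower. Over all genes 8.68% were higher and 10.5% lower, and these lists had too few tested genes to be set beside those shares. Dcn belongs to the stromal list, so it could not be tested with cells that carry 2 or more UMIs of the list left out.

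Leaving out replicate 2 or 4 reduced the calls against PYMT-dominant cells to 600 and 522. The WT mice alone gave 258 and the CB mice alone 696 calls. Of the 1024 called genes, 647 were tested in the WT mice, where 644 kept their sign and 245 kept their call. In the CB mice 1011 were tested, where all kept their sign and 615 kept their call. Both series took part in the fit that made the 1024 calls, so the kept signs are no separate test of them.

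The fibrinogen-negative hormone cells were uneven in their hormone counts. As the sum of 4 was picked after the data were seen, and the genes named next were picked after their values were seen, this split is a description. Cells with a sum of 4 or more were also deeper, with medians of 1037.5 to 3012.5 UMIs across mice against 579 to 1189 for a sum of 2 or 3, and in replicate 7 the lower group had 9 cells. Pcp4 was at 144 to 1548 CPM in cells with 4 or more and at 0 to 582 CPM in cells with 2 or 3, and Fxyd2 at 316 to 1620 CPM against 152 to 725 CPM. Stc2 (217 to 648 against 0 to 305 CPM) and Ly6a (1535 to 5101 against 610 to 2708 CPM) also ranked higher in the cells with more hormone UMIs. Cald1 (28.9 to 678 against 269 to 1425 CPM) and Phlda1 (208 to 1220 against 771 to 1896 CPM) were lower with 4 or more in each of the 7 mice. The summed basal and myoepithelial markers (47.0 to 259 against 166 to 2023 CPM) were lower with 4 or more in 6 of 7 mice. Pcp4, Fxyd2, Stc2 and Ly6a were higher with 4 or more hormone UMIs in each of the 7 mice. Igfbp5 was lower with 4 or more in 5 mice, at 304 to 2126 CPM against 593 to 3192 CPM, and Slpi, a secreted protease inhibitor, in 5 mice, at 0 to 277 CPM against 0 to 610 CPM. In PYMT-dominant cells Igfbp5 was at 3167 to 5529 CPM and Slpi at 170 to 873 CPM. The parts of depth, of free RNA and of cells of another kind in this unevenness were not tested.

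**Figure D5:**
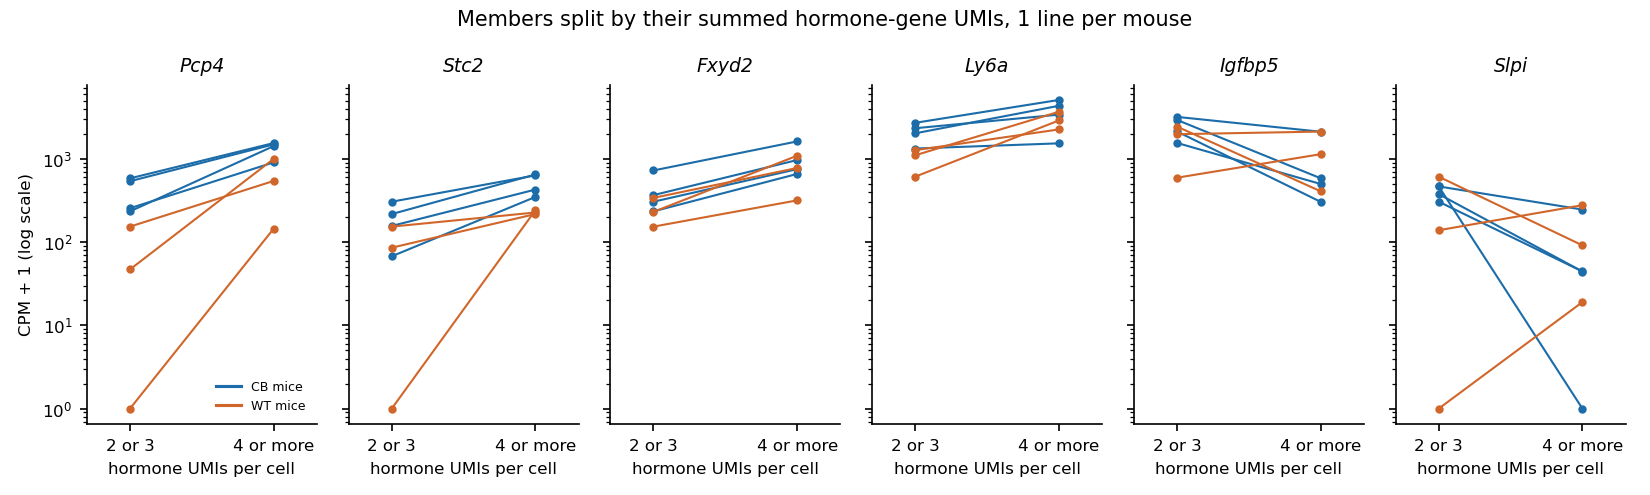
Levels of 6 genes outside the rule (CPM + 1, log scale) in fibrinogen-negative hormone cells with 2 or 3 and with 4 or more hormone UMIs, with 1 line per mouse (blue CB, orange WT). Pcp4, Stc2, Fxyd2 and Ly6a were higher at 4 or more in each mouse, and Igfbp5 and Slpi were lower in 5 of 7 mice.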

How the data were processed

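Drop-seq profiled the transcripts of single tumor cells from 7 MMTV-PyMT;HK2f/f control mice. The authors deposited, for each tumor, a table of raw UMI counts with genes and barcodes, not normalized. The methods state alignment to mouse mm10 with the PyMT sequence added, whereas the submitters' processing notes name STAR and FastQC and the human builds GRCh37.p13 and hg19. The gene symbols are mouse symbols, and the gene annotation is not given in the sources used here. Mitochondrial genes were dropped, and barcodes with 200 to 6000 genes were kept (962677 to 4471473 UMIs per mouse). Each tumor was run and sequenced on its own per the methods. Both sums of a comparison came from the same mouse and library. With mouse as block, each test therefore set the mean difference between cell groups against the residual variation. That residual holds counting error and the variation of the difference from mouse to mouse, and edgeR moderates it over genes. The members and all gene lists were chosen with earlier results of these data known. No doublet caller was run. Cells with 2 or more UMIs of the immune or of the stromal and endothelial list were left out in an alternative.

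UMIs were summed per mouse and cell group (at least 10 cells) with Python 3.11.15, numpy 2.4.6, scipy 1.17.1 and pandas 2.3.3. The sums were tested with edgeR 4.0.16 in R 4.3.3 (filterByExpr, TMM normalization, quasi-likelihood test, mouse as block since all cell groups came from the same 7 animals, Benjamini-Hochberg adjustment over all genes tested, threshold 0.05). The 13 genes of the rule stayed in the library sizes and were left out of the tests. SEs were taken as the log2 difference divided by the root of the F statistic. Levels are UMIs per 1000000 UMIs (CPM) of a group's sum in a mouse. Genes were named if they were among the 10 highest or 10 lowest called differences with the same direction in every mouse and at least 100 UMIs, if they belonged to the rule or a list, or, with calls under 5, if called. Sequences and gene positions came from RefSeq (GRCm38.p6) and GENCODE M21, and all 3 promoter genes shown matched. The scripts were tested on simulated counts. Alternatives were DESeq2 1.42.0, no filter, no mouse block, other cell minimums, depth limits and marker cutoffs, and leaving out each mouse or title series.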

Additional observations from a re-analysis of the deposited data

Results flagged for a closer look

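Summed levels of the lists and the share of cells were checked in the fibrinogen-negative hormone cells for a mouse far from the other 6, by the gap to its nearest neighbor over the whole range (above 0.568 for 7 mice). Of 22 values checked, 2 stood out, and chance gives about 1 in 20. Basal and myoepithelial markers summed to 546 CPM in replicate 7, against 78.2 to 255 CPM in the other mice. Stromal and endothelial markers summed to 8230 CPM in replicate 8, against 238 to 2761 CPM in the others, and the immune cells of replicate 8 held 4007 CPM of the same list, the highest of the 7 mice. Replicate 8 had 28 fibrinogen-negative hormone cells.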

How the results depend on the processing

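The mean share of keratin-gated cells stayed within 1 SD of 10.3% in all alternatives tried, from 7.93% with a hormone sum of at least 3 to 11.4% with a keratin sum of at least 5, and from 8.65 to 11.3% when single mice were left out. Against fibrinogen-positive epithelial cells, the 2 calls became 37 without a filter on low counts, 0 without the replicate block, 0 with a fibrinogen sum of at least 3, 6 in the CB mice and 1 in the WT mice, and 0 to 6 without single mice. The 0 calls by edgeR without the block and with the raised fibrinogen sum stood beside 54 of 2199 and 145 of 1896 genes at an unadjusted p under 0.05. The 54 lie below the share of about 0.05 that no difference would give. Neither of the 2 main calls was among the 6 of the CB mice or the 1 of the WT mice. Against fibrinogen-positive hormone cells, the 4 calls became 2 with DESeq2, 64 without a filter, 2 with a hormone sum of at least 3 and 7 without mixed barcodes. They became 0 without the replicate block (63 of 1555 genes at an unadjusted p under 0.05) and 0 with at least 20 cells (156 of 1927 genes). The 63 also lie below a share of 0.05. Without single mice there were 0 to 13 calls. Against PYMT-dominant cells, the 1024 calls became 1668 without a filter, 608 without the replicate block, 312 between 500 and 2000 UMIs, 598 without mixed barcodes and 258 in the WT mice, and 522 to 1078 without single mice. Fewer genes were tested between 500 and 2000 UMIs (1081), without mixed barcodes (3140) and in the WT mice (2657), and the cause of the other changes was not tested. None of the called genes against fibrinogen-positive cells and none of the 10 highest and 10 lowest against PYMT-dominant cells changed sign in an alternative that tested it. All alternatives reused mice of the main fits, so the kept signs are no separate test. Over these alternatives the calls were kept 15 times and lost 20 times against fibrinogen-positive epithelial cells, and 33 and 31 times against fibrinogen-positive hormone cells. Against PYMT-dominant cells the tally was 334 and 2, but it covers only the 20 named genes, which had the largest differences. Over all 1024 calls there, 602 were kept without the replicate block, 511 of 834 tested without replicate 4 and 245 of 647 tested in the WT mice. In both fibrinogen contrasts the minimum of 20 cells repeated the fit without replicate 8. Against PYMT-dominant cells it repeated the main fit, so the tallies count some fits more than once. Of the 20 genes named against PYMT-dominant cells, Wap lost its call, without mixed barcodes (adjusted p = 0.21) and without the replicate block (0.089). At 28 to 294 cells per mouse, genes such as Foxa1 and Tnfsf11 had too few UMIs to pass the count filter. Their differences were not tested in the main fits.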
